A study of Rattus norvegicus with 16 samples.

Results

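The 9 genes described here are immediate early genes that neuronal activity induces in brain, namely Fos (ENSRNOG00000008015), Fosb (ENSRNOG00000046667), Junb (ENSRNOG00000042838), Jun (ENSRNOG00000026293), Egr1 (ENSRNOG00000019422), Egr2 (ENSRNOG00000000640), Nr4a1 (ENSRNOG00000007607), Arc (ENSRNOG00000043465) and Dusp1 (ENSRNOG00000003977). They were chosen by name and found by their Ensembl identifiers, and they are 9 of the 32883 genes in the deposited count table. All 9 have a row in the table, and 7 of them passed the filter on low counts (1.5 CPM, that is counts scaled to a common library total, or more in 3 or more libraries). Fosb and Egr2 reached 1.5 CPM in 0 libraries and were left out of the tests across genes.

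Immediate early genes are transcribed within minutes of a stimulus, without new protein synthesis, because the transcription factors that switch them on are already bound or waiting in the cell. Calcium and cyclic AMP signals act through CREB at the cyclic AMP response element (CRE), and MAP kinase signals act through serum response factor at the CArG box. In the adult suprachiasmatic nuclei (SCN), the site of the central mammalian clock, Fos, Junb and Egr1 are known for their induction by light at night.

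The samples were SCN of Wistar rat fetuses, taken from 8 mothers of Group A and 8 mothers of Group B, 1 litter at each of 8 circadian times, every 3 h from CT0 to CT21. Mothers of Group A had sham surgery of the SCN and ate ad libitum, and mothers of Group B had their SCN destroyed and could feed only in a restricted part of the day. All mothers were kept in constant darkness, and CT12 was the onset of activity in Group A and of the food in Group B, so that CT12 to CT21 was subjective night and CT0 to CT9 subjective day. Each library was 1 pool of the fetuses of 1 mother, punched from frozen sections, so the fetuses of a library shared a mother and no time point had a second library in its group. Surgery and feeding regime changed together between the groups, and their parts cannot be told apart. The labels give embryonic day 17 and 8 fetuses per pool, whereas the study's methods give a later embryonic day and a variable number of fetuses for Group B. The tissue could not be checked against marker genes, because no symbols were paired with the identifiers of the other genes.

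The total count per library ranged from 10047500 in Group B at CT0 to 18738585 in Group B at CT9. A single count was therefore worth between 0.0535 and 0.0992 CPM. The libraries correlated with the others of their group at a mean r of 0.977 to 0.985 over the genes tested, with the lowest value in Group B at CT3. In bulk tissue, fewer cells that express a gene and less RNA per cell cannot be told apart.

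Promoter sequence shows which of the known response elements lie next to these genes. RefSeq promoters of the rat assembly GRCr8 were matched by symbol for 6 of the 9 genes (Fosb, Junb, Egr1, Egr2, Nr4a1 and Dusp1). The 250 bases upstream of the annotated start are printed 5′ to 3′ on the strand of the gene for the 4 that show the kinds of elements found, with matches in capitals. The motifs searched on both strands were the full CRE (TGACGTCA), its core, called CRE core here (TGACG, which also occurs inside a full CRE), the E-box (CACGTG), at which the clock proteins CLOCK and BMAL1 bind, and the CArG box.
Dusp1, chr10:17184603-17184852, plus strand: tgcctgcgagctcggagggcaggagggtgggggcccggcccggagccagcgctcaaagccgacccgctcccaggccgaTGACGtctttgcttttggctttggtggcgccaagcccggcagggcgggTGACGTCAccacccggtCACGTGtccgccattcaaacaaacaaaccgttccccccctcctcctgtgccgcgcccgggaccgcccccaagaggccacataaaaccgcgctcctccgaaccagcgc
Egr2, chr20:21054442-21054691, minus strand: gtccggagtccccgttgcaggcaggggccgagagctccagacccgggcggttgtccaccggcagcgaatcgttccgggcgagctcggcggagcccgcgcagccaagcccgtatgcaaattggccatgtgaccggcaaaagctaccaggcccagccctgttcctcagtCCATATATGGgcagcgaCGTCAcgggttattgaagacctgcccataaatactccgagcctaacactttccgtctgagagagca
Nr4a1, chr7:134259888-134260137, plus strand: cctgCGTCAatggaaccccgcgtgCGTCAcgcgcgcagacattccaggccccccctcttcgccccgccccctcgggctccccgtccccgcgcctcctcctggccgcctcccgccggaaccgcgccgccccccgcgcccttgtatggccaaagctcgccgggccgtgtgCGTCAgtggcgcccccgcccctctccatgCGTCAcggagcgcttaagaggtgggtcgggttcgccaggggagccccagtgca
Junb, chr19:40080876-40081125, plus strand: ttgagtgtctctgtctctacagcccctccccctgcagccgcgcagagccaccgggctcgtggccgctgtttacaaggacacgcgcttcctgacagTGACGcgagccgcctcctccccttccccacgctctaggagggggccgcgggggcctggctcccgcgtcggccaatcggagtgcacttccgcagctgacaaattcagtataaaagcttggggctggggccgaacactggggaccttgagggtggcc

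The full CRE of Dusp1 starts 124 bases and its E-box 107 bases upstream of the annotated start. The CArG box of Egr2 starts 83 bases upstream and its CRE core, on the other strand, 66 bases upstream. Nr4a1 has 4 CRE cores, all on the other strand, and Junb has 1. The window of Egr1, not printed, holds 2 CArG boxes and 2 CRE cores, and that of Fosb holds 0 of the motifs. Over 33469 RefSeq promoters of the same length, 1.59% hold a full CRE, 18.2% a CRE core, 1.5% a CArG box and 5.59% an E-box. A match of letters is a description of the sequence and says nothing about whether a factor bound there in these fetuses.

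The first question was how high these genes stood in the fetal SCN. Levels are CPM scaled by the trimmed mean of M values (TMM), and since CPM takes no account of transcript length, levels are compared between libraries and not between genes. The values of every library are plotted by circadian time.

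**Figure D1:**
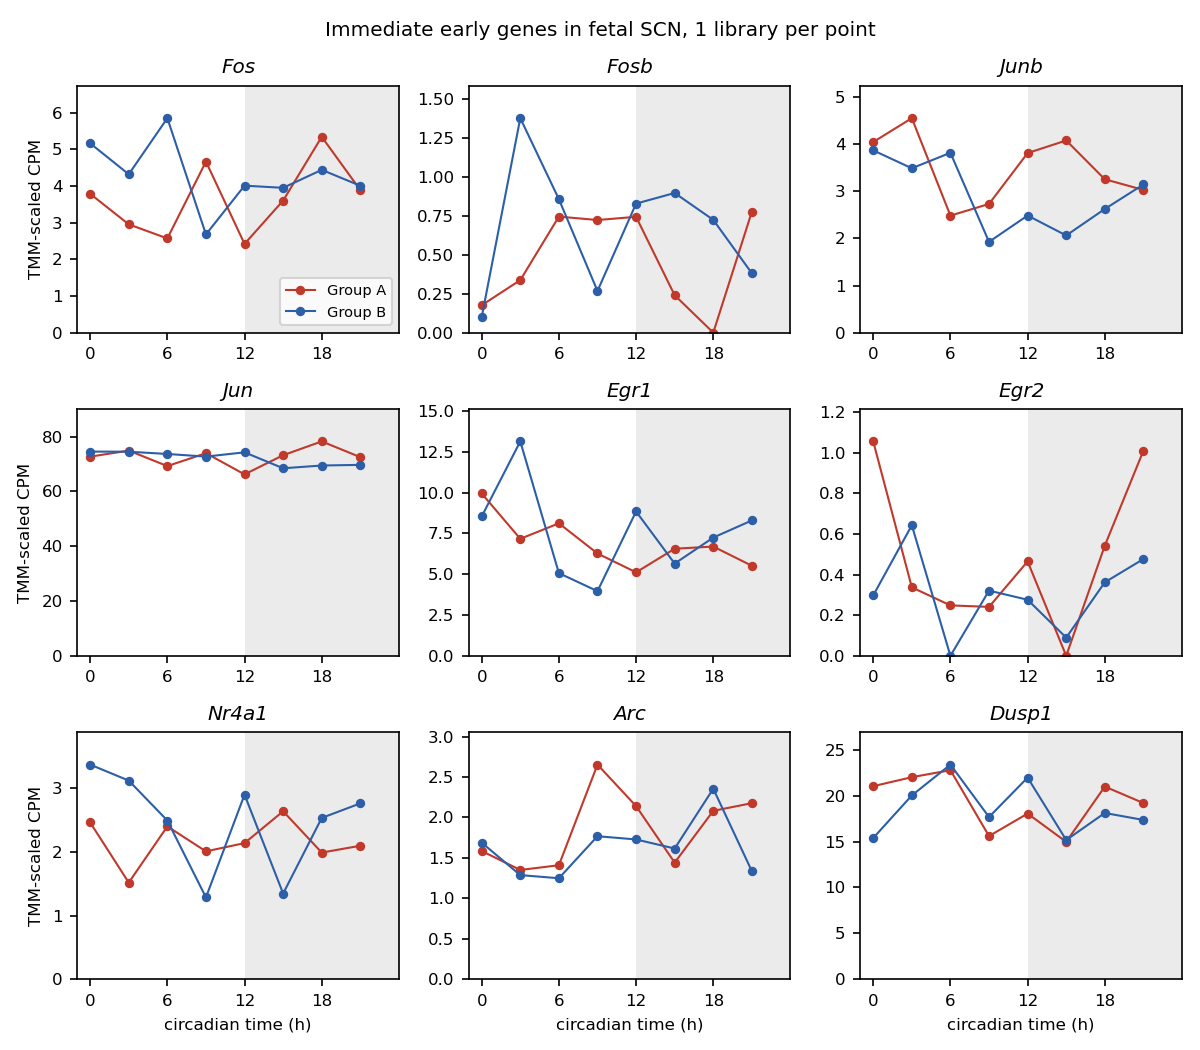
TMM-scaled CPM (vertical axis, from 0) of each of the 9 genes against circadian time in hours, with Group A in red and Group B in blue, 1 library per point, and subjective night shaded. The lines of the groups cross in every panel, Egr1 has its highest point in Group B at CT3 (13.1 CPM), and Fosb and Egr2 fall to 0 counts in single libraries.

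Among the AP-1 factors, which bind DNA mostly as dimers of a FOS and a JUN protein, Fos stood at 2.42 CPM (CT12) to 5.34 CPM (CT18) in Group A, with a median of 3.69. In Group B it stood at 2.68 CPM (CT9) to 5.85 CPM (CT6), with a median of 4.16. These are 26 to 59 counts per library of Group A and 42 to 75 per library of Group B. Fos was thus counted in all 16 libraries, and the ranges of the groups overlapped, with 1 Group B library (CT6) above all of Group A and 2 Group A libraries (CT6 and CT12) below all of Group B.

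Fosb, which encodes a close relative of FOS and the long-lived delta-FosB protein, was near the detection limit. Its highest value in Group A was 0.777 CPM (CT21), its median 0.530, and its lowest 0 counts (CT18), which allows up to 0.271 CPM (3 counts; counting error only). In Group B it ranged from 0.0992 CPM (1 count, CT0) to 1.38 CPM (15 counts, CT3), with a median of 0.777. The levels of 4 of 8 Group B libraries lay above all of Group A, while the lowest Group B libraries lay within the range of Group A.

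Junb, whose product is a JUN partner that restrains JUN in several settings, stood at 2.49 CPM (CT6) to 4.55 CPM (CT3) in Group A, with a median of 3.54. The range in Group B was 1.93 CPM (CT9) to 3.87 CPM (CT0), with a median of 2.89. Jun itself, the main partner of FOS, was the steadiest of the 9 genes. It stood at 66.2 CPM (CT12) to 78.3 CPM (CT18) in Group A, median 73.0, and at 68.5 CPM (CT15) to 74.5 CPM (CT0) in Group B, median 73.2. The highest Jun library was 1.18 times the lowest for Group A and 1.09 times for Group B, and for Fos these ratios were 2.21 and 2.18.

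Egr1 (also Zif268), a zinc finger factor, had the largest ratio of the highest to the lowest library within a group of the 7 genes tested. It stood at 5.12 CPM (CT12) to 9.95 CPM (CT0) in Group A, with a median of 6.63. Group B spanned 3.96 CPM (CT9) to 13.1 CPM (CT3), with a median of 7.77. That ratio was 3.32 in Group B and 1.94 in Group A. The CT3 library of Group B held 143 Egr1 counts and the next highest of its group, CT12, stood at 8.84 CPM.

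Egr2, a zinc finger factor best known from hindbrain and Schwann cells, had 0 counts in Group A at CT15 and in Group B at CT6, which allows up to 0.240 and 0.234 CPM (3 counts). Its highest values were 1.06 CPM (Group A, CT0) and 0.643 CPM (Group B, CT3), and its medians 0.401 and 0.310. Like Fosb, it was counted at no more than 15 reads in any library, so changes in it were hardly detectable at this depth.

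Nr4a1 (Nur77), an orphan nuclear receptor, stood at 1.52 CPM (CT3) to 2.64 CPM (CT15) in Group A, median 2.12. Its Group B values lay at 1.29 CPM (CT9) to 3.37 CPM (CT0), median 2.65. In Group B, 4 of 8 libraries lay above all of Group A, and the CT9 and CT15 libraries lay below all of Group A.

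Of the effector genes, Arc, whose mRNA travels to active synapses and whose protein drives the internalization of AMPA receptors, stood at 1.35 CPM (CT3) to 2.65 CPM (CT9) in Group A, median 1.83. The Group B litters stood at 1.25 CPM (CT6) to 2.35 CPM (CT18), median 1.65. Dusp1, a phosphatase that switches off MAP kinases, stood at 15.0 to 22.8 CPM in Group A, median 20.1, and at 15.2 to 23.4 CPM in Group B, median 17.9. In both groups the highest Dusp1 library was CT6 and the lowest CT15.

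The next question was whether loss of the maternal SCN together with restricted feeding changed the level of these genes. In edgeR's quasi-likelihood test of Group B against Group A, 0 of the 7 genes tested passed an adjusted p of 0.05, as did 0 of 13685 genes in all (percent called 0). At an unadjusted p under 0.05 the counts were 0 of 7 and 795 of 13685 (5.81%), and DESeq2 called 0 genes as well. Of the 7 genes, 3 were higher and 4 lower in Group B, with a median difference of -0.0091 on the log2 scale against -0.0026 over all genes tested. Differences and their 95% intervals are plotted beside those of night against day.

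**Figure D2:**
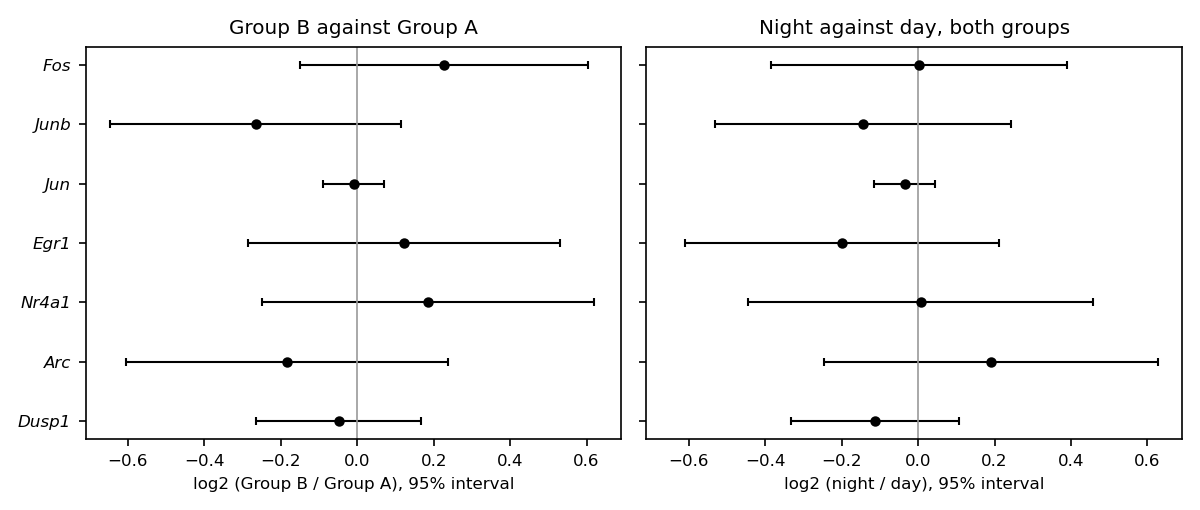
Log2 differences (horizontal axis) of the 7 genes tested, with 95% intervals from edgeR, for Group B against Group A (left, 8 against 8 libraries) and for subjective night against subjective day over both groups (right, 8 against 8 libraries). Every interval crosses 0, and that of Jun is the narrowest in both panels.

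For Fos the mean and SD over 8 litters were 3.65 ± 1.01 CPM (Group A) and 4.30 ± 0.932 CPM (Group B). The log2 difference was 0.23 (SE 0.18, 95% interval -0.15 to 0.60, edgeR adjusted p 0.908), which bounds the fold between 0.902 and 1.52. Junb differed in the other direction, with means of 3.5 ± 0.732 CPM (Group A) and 2.93 ± 0.764 CPM (Group B), a log2 difference of -0.27 (SE 0.18, interval -0.65 to 0.12, edgeR adjusted p 0.891). The data therefore left room for a rise of Fos by up to 1.52-fold and for a Junb level of 0.639 times that of Group A, but showed neither. Jun was bounded most tightly, with 72.6 ± 3.61 and 72.2 ± 2.54 CPM and a fold between 0.940 and 1.05.

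Egr1 differed by 0.12 on the log2 scale (interval -0.29 to 0.53), Nr4a1 by 0.18 (-0.25 to 0.62), Arc by -0.18 (-0.61 to 0.24) and Dusp1 by -0.05 (-0.26 to 0.17), each with an edgeR adjusted p of at least 0.934. For the low genes, the exact two-sided permutation test over the libraries gave p = 0.256 for Fosb (0.468 ± 0.313 CPM for Group A and 0.679 ± 0.412 for Group B, n = 8 each). The same exact test gave p = 0.259 for Egr2 (0.488 ± 0.374 and 0.308 ± 0.203 CPM, n = 8 each). For none of the 9 genes, then, was a difference between groups detected. The scatter it was tested against holds time of day as well as litter. The sign of the Egr1 difference rested on 1 library, since without Group B at CT3 it was -0.0355.

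Subjective night began with the activity of the mothers or with their food, so the third question was whether the genes differed between night and day. By the study's methods, the food of Group B was available for only a part of subjective night. Over both groups, 0 of 7 genes were called at an adjusted p of 0.05, where 51 of 13685 genes were called (0.373%), and 0 of 7 had an unadjusted p under 0.05, where 12.0% of all genes did. Arc had the largest positive difference, 0.19 on the log2 scale (interval -0.25 to 0.63, night minus day), and Egr1 the largest negative one, -0.20 (interval -0.61 to 0.21). Both sizes rested on single libraries. The difference of Egr1 was -0.00094 without the CT3 library of Group B and -0.32 without its CT9 library, and that of Arc was 0.11 without CT18 of Group B and 0.33 without CT9 of Group A. Fos differed by 0.0027 (interval -0.38 to 0.39), that is by between 0.766-fold and 1.31-fold. Junb differed by -0.14 (interval -0.53 to 0.24), Dusp1 by -0.11 (-0.33 to 0.11), Jun by -0.03 (-0.11 to 0.05) and Nr4a1 by 0.0064 (-0.45 to 0.46). Each of these intervals thus crossed 0, and those of Fos and Nr4a1 lay almost evenly around it.

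Within Group A, 0 genes in all were called (percent called 0; 7.91% of genes and 0 of 7 members at an unadjusted p under 0.05), and DESeq2 called 20 genes, none of them among the 7. Egr1 stood at 7.88 ± 1.57 CPM by day and 5.97 ± 0.777 by night in Group A (SD, n = 4 each). In Group B the same gene stood at 7.68 ± 4.13 CPM by day, with both its highest and its lowest library in that set, and 7.51 ± 1.40 by night. Within Group B, 1 gene in all was called (0.00731%) and 0 of the 7, with 8.73% of all genes and 0 of the 7 at an unadjusted p under 0.05. The largest difference there was that of Junb, 3.28 ± 0.915 CPM by day and 2.58 ± 0.447 by night (SD, n = 4 each), or -0.33 on the log2 scale (interval -0.88 to 0.23).

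The difference between the groups in night against day, tested as an interaction, was called for 0 of 7 genes and 0 of 13685 in all (percent called 0; 4.16% of all genes and 0 of 7 at an unadjusted p under 0.05), and DESeq2 called 1 gene in all and none of the 7. Egr1 had the largest such difference of the 7, 0.39 on the log2 scale (interval -0.43 to 1.21). That value depended on single libraries in both directions. Without the CT3 library of Group B it was 0.79 (unadjusted p 0.0254, edgeR adjusted p 0.9995), whereas it was 0.16 without CT9 and 0.24 without CT6 of Group B, and 0.26 without CT0 of Group A.

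Rhythms over the whole day were tested with a 24-h cosine. A cosine common to both groups was called for 0 of 7 genes, against 42 of 13685 in all (0.307%), and 0 of 7 had an unadjusted p under 0.05, against 11.9%. Egr1 came closest, with a fitted peak at CT0.51 that was 1.53 times the trough (unadjusted p 0.0695, edgeR adjusted p 0.467). Junb had a fitted peak at CT0.53 and a ratio of 1.39 (edgeR adjusted p 0.641), and Dusp1 a peak at CT4.07 and a ratio of 1.21 (edgeR adjusted p 0.60). Fos, Jun, Nr4a1 and Arc had edgeR adjusted p values of 0.741 to 0.905. The median fitted peak over trough of the 7 genes was 0.35 on the log2 scale, against 0.16 over all genes tested, and neither value takes account of the scatter that a gene with few counts has around its curve.

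With a separate cosine in each group, the cosine of Group A was called for 0 of 7 genes (0.00731% of all genes) and that of Group B for 0 of 7 (0.095%), with 0 of 7 at an unadjusted p under 0.05 in either group, against 7.42% and 10.7% of all genes. The lowest p in Group A was that of Dusp1, with a peak at CT1.38 and a ratio of 1.35 (unadjusted p 0.0926, edgeR adjusted p 0.695). In Group B it was that of Junb, with a peak at CT1.38 and a ratio of 1.84 (unadjusted p 0.0683, edgeR adjusted p 0.503). The difference of the cosines between the groups was called for 0 of 7 genes and 0 in all (percent called 0; 6.12% of all genes and 0 of 7 at an unadjusted p under 0.05), and DESeq2 called 4 genes in all and none of the 7.

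For Egr1 and Nr4a1 the cosine of Group B depended on single libraries. Without the CT12 library of Group B, in which Egr1 stood at 8.84 CPM and Nr4a1 at 2.90 CPM between lower values at CT9 and CT15, the cosine in Group B had an unadjusted p of 0.00606 for Egr1 (edgeR adjusted p 0.458) and of 0.0112 for Nr4a1 (edgeR adjusted p 0.477). Neither passed the adjusted threshold. For both genes this was the lowest p of the 16 fits that left out 1 library, and the adjustment does not cover that choice. In the other direction, the unadjusted p of this edgeR test was 0.335 for Egr1 without CT9 of Group B and 0.371 for Nr4a1 without CT0 of Group B. For Junb it stayed between 0.0553 and 0.150 whichever library was left out.

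Model selection asked which of 5 patterns described each gene best, namely no rhythm, a rhythm confined to Group A (Arhy) or to Group B (Brhy), the same rhythm in both (ABsync) or rhythms that differ (ABdiff). A gene was assigned where the Bayesian information criterion weight (BICW) of its best pattern exceeded 0.5. Arc (BICW 0.752), Jun (0.751), Fos (0.716) and Nr4a1 (0.682) were assigned to no rhythm, 4 of 7 genes, as were 69.2% of the 13685 genes. Junb, Egr1 and Dusp1 were left unassigned.

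For Junb, no rhythm had the highest weight (0.476), followed by Brhy (0.332). For Egr1, ABsync (0.387) stood just above no rhythm (0.343), and for Dusp1 no rhythm (0.364) stood above Arhy (0.253). The rhythmic patterns thus received 0 of 7 genes, where Arhy received 2.40% of all genes, Brhy 4.30%, ABsync 5.03% and ABdiff 0.307%. Single libraries decided some of these assignments, in both directions. Junb was assigned to no rhythm in 9 of the 16 fits that left out 1 library (BICW 0.502 to 0.623), and Dusp1 was assigned to it (0.550) without CT15 of Group A. Fos was left unassigned (0.393) without the CT9 library of Group A. Egr1 was assigned to ABsync (0.553) without CT21 of Group A, and to Brhy (0.522) without CT12 of Group B, while no rhythm had the highest weight for it in 6 of those 16 fits. Leaving out CT12 of Group B also put Nr4a1 in Brhy (0.652). Fitted to log2 CPM with Gaussian errors in place of counts, Junb (0.733) and Nr4a1 (0.603) were assigned to Brhy. Those fits put 3444 of the 13685 genes in rhythmic patterns, where the fits to counts put 1647. Whether 2 of 7 genes differs from that share was not tested.

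To see how far these genes varied beyond counting error, the spread over the libraries of a group was set against what Poisson counting alone would give. The observed and expected coefficients of variation (CV) are plotted for each gene and group.

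**Figure D3:**
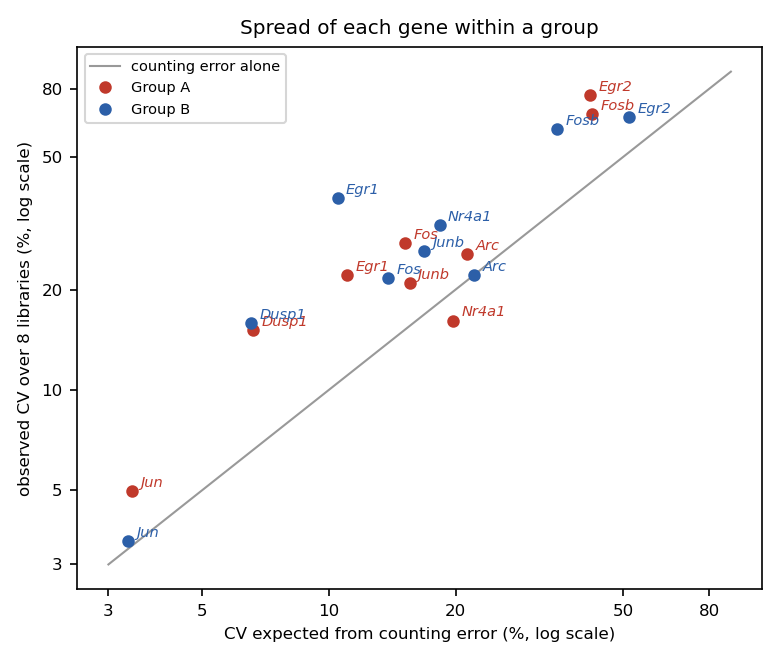
Observed CV over the 8 libraries of a group (vertical axis, percent, log scale) against the CV that counting error alone would give (horizontal axis, percent, log scale), 1 point per gene and group, with the line where both are equal. Egr1 in Group B lies farthest above the line (37.6% observed, 10.5% expected), whereas Nr4a1 in Group A lies below it (16.1% and 19.8%).

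Egr1 had a variance over all 16 libraries of 8.73 times the Poisson value, and that was 3.92 times for the litters of Group A and 14.4 times for those of Group B. Dusp1 followed with 5.19 times, at a CV of 15.1% (Group A) and 15.9% (Group B). Its value was 5.35 times for Group A, above that of Egr1, and 5.68 times for Group B. Fos reached 3.14 times, Egr2 2.88 times, Fosb 2.78 times, Junb 2.51 times and Nr4a1 2.02 times. Jun (1.41 times) and Arc (1.22 times) were close to counting error. At a like CV this ratio rises with the count, so it does not rank genes of unlike counts. Over the 16 libraries the CV was 25.1% for Fos and 15.1% for Dusp1. Nr4a1 varied unequally, with 0.673 times the Poisson variance within Group A and 3.36 times within Group B, a difference that was not tested.

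The edgeR fit describes the same spread as a biological coefficient of variation, which can be read against the trend of genes with like counts. For Egr1 it was 26.0% against a trend of 19.4%, and 93.1% of the genes tested had a lower ratio of the former to the latter. For Jun it was 5.46% against 8.86%, with only 3.42% of genes lower, and for Arc 19.4% against 28.7%, with 11.6% of genes lower. For Fos it was 21.8% against 23.7%, with 66.2% of genes lower, and for Dusp1 13.8% against 13.3%, with 80.5% of genes lower. For Junb it was 20.8% against 25.4%, with 47.2% of genes lower, and for Nr4a1 22.9% against 27.1%, with 52.5% of genes lower. In this fit over both groups together, Egr1 thus varied most between libraries for its level, of the 7 genes, and Jun least.

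The correlations between the members were mostly low. Over the 21 pairs of the 7 genes tested, Pearson's r of log2 CPM over the 16 libraries ranged from -0.34 (Egr1 and Arc) to 0.68 (Egr1 and Nr4a1), with a median of 0.17, and was positive in 15 pairs. Apart from the pairs with Fos, which have permutation p values below, the pairs are described and not tested. All of them share libraries, depth and genes. Counting error also pulls r towards 0 in genes with few counts, and its part was not tested. Arc had 14 to 33 counts per library (1.22 times the Poisson variance) and Nr4a1 15 to 42 (2.02 times).

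**Figure D4:**
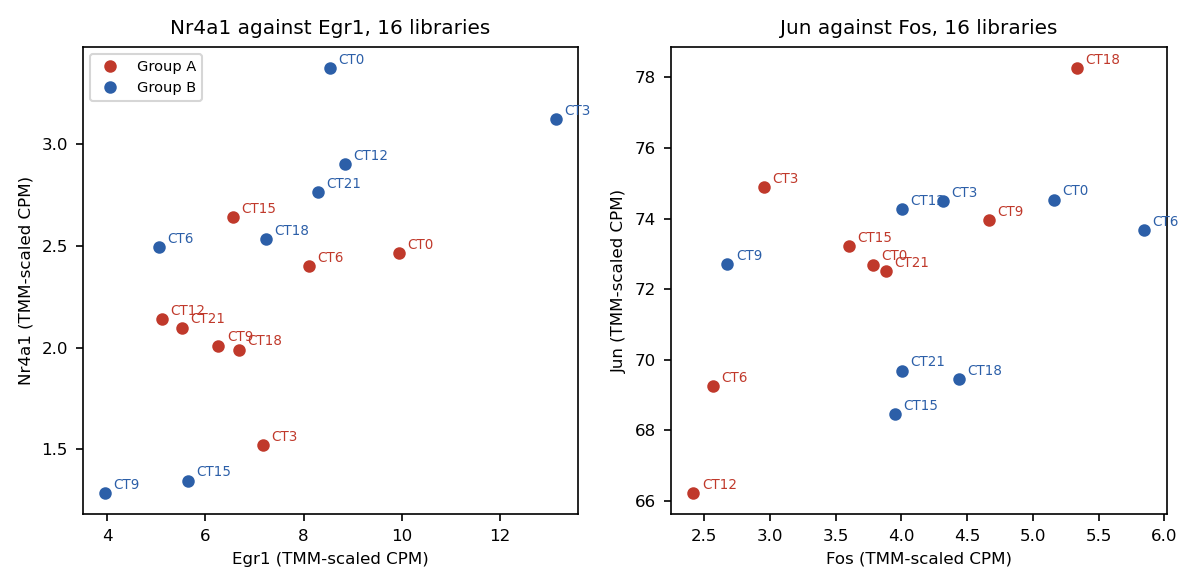
Nr4a1 against Egr1 (left) and Jun against Fos (right), both axes in TMM-scaled CPM, 1 point per library labelled with its circadian time, Group A in red and Group B in blue. On the left, the CT3 library of Group B lies far to the right (13.1 CPM of Egr1) and its CT9 library at the lower left, and on the right the CT12 and CT18 libraries of Group A mark the lowest and highest Jun values.

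Egr1 and Nr4a1 were the pair with the highest r, chosen here after the values were seen. Their r was 0.24 within Group A and 0.79 within Group B, and it was 0.49 without the CT3 and CT9 libraries of Group B, the 2 farthest from the median of Egr1. Arc had a negative r in 5 of its 6 pairs, from -0.34 (Egr1) to -0.07 (Jun), the exception being Fos (r = 0.06). Its spread was close to counting error, and the negative values were not tested.

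Fos was compared with each of the other 6 genes in turn by a permutation test with 100000 resamples. Jun had the highest r, 0.54 (unadjusted permutation p 0.0322, Spearman's rho 0.51, p 0.0431, n = 16), the only 1 of the 6 with an unadjusted p under 0.05. The p values were not adjusted over the 6 comparisons, so no relation with Fos was called. The r of Jun rested on a few libraries. Without CT12 and CT6 of Group A, the 2 farthest from the median of Fos, it was 0.23. It was 0.82 within Group A and 0.22 within Group B. Of 13684 other genes tested, 1.45% had a higher r to Fos than Jun.

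Nr4a1 had an r to Fos of 0.41 (permutation p 0.119) and Egr1 of 0.22 (permutation p 0.417). Junb, Arc and Dusp1 had values of 0.15, 0.06 and -0.05 (permutation p of 0.569, 0.813 and 0.847). Junb followed Fos within Group B (r = 0.83, n = 8) and not within Group A (r = -0.17), a difference that was not tested. Ranked by r to Fos over the 16 libraries, the top genes were none of the 9. The first was ENSRNOG00000002812 (r = 0.84) and the second ENSRNOG00000031287 (r = 0.80), for which no symbols were at hand. They are the upper end of a ranking of 13684 genes and were not tested. In that ranking r ran down to -0.81, with a median of 0.0039.

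By library, the lowest and highest values of the 9 genes were spread over several litters. In Group B, the CT9 library, the deepest of all, was the lowest for Fos, Junb, Egr1 and Nr4a1, the CT15 library for Jun and Dusp1, the CT6 library for Egr2 and Arc, and the CT0 library for Fosb. The highest of that group was CT3 for Fosb, Egr1 and Egr2, CT0 for Junb, Jun and Nr4a1, CT6 for Fos and Dusp1, and CT18 for Arc. In Group A, CT12 was the lowest for Fos, Jun and Egr1 and CT18 the highest for Fos and Jun. Each of these is 1 litter, so time of day and litter cannot be told apart, and the part of sequencing depth in the low values at CT9 of Group B was not tested. Without the CT9 library, r between Fos and Junb was -0.04 over both groups and 0.75 within Group B, and r between Egr1 and Nr4a1 was 0.56 over both groups.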

How the data were processed

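RNA-Seq counts per Ensembl gene were analysed for 16 libraries of pooled fetal SCN, grouped by the label of the mother's group. The counts were deposited by the authors without normalization. Libraries were made with rRNA depletion, polyA enrichment and a stranded low-input kit, and reads were mapped with HISAT2 2.1.0 to rn6 per the labels, whose processing notes also name Salmon and StringTie. The tool behind these counts and its strand setting are not given in the sources used here, so reads of an overlapping antisense gene may be included.

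Genes that reached 1.5 CPM in 3 or more libraries (13685 of 32883) were tested with edgeR 4.0.16 (R 4.3.3), quasi-likelihood tests with TMM factors and Benjamini-Hochberg adjustment over all genes tested, fitted over all 16 libraries. Terms were group, phase of day within group, or a 24-h cosine. A cosine over 8 times assumes 1 peak a day, and no time point is replicated, so the error comes from the scatter of litters around the fit. The study's dryR was replaced by BIC weights of the same 5 models, with DESeq2 1.42.0 dispersions. Procedures were tested on simulated data. Totals of 10047500 to 18738585 counts set the counting error. Limits for a count of 0 are 3 counts and cover counting error only. Correlations used log2 CPM with a prior count of 2. Named genes were all 9 members and the genes nearest to Fos by r, of which 2 are printed because they have no symbol here. The members and lists were chosen with earlier results of these data known. Lists of clock genes, receptors and cell type markers were set by symbol, matched 0 genes and were not analysed here, nor were the proteomic measurements. Alternatives were other scaling factors, no filter, at least 10 counts in every library, DESeq2 tests, Gaussian fits, edgeR dispersions, groups fitted alone, circadian time as a block and each library left out in turn. Leaving out the deepest library from the correlations was added after the values were seen.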

Additional observations from a re-analysis of the deposited data

Results flagged for a closer look

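Of 20 comparisons of a highest or lowest library with its group, 1 stood apart by Dixon's criterion, the number that chance gives. Arc in Group B was highest at CT18, with 2.35 CPM, and the next library, CT9, had 1.77 CPM, a gap of 0.531 of the range of the 8 libraries. Those libraries held 26 and 33 Arc counts.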

How the results depend on the processing

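Depth limits Fosb and Egr2 to 15 counts or fewer, and single litters per time point limit every rhythm. The 7 tested genes gave 63 results and 1332 values under the alternatives for the edgeR tests. Of these, 0 passed the adjusted threshold (lowest adjusted p 0.317) and 1286 kept, where they have one, their sign, while 46 changed it. The cause of the changes below was not tested.

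Genes called in all moved as follows. With no filter, 118 genes were called for night against day, 22 in Group A, 19 in Group B and 2 for the difference, and 69 for the common cosine, 3 in Group A and 21 in Group B. The night difference of Jun in Group A was then 0.0015. With DESeq2 tests these were 211, 20, 73, 1, 298, 28 and 133, and 4 for the difference of the cosines. At 10 counts in every library the common cosine called 64, upper-quartile factors left 0 for the cosine in Group A, and the cosine called 0 genes in Group A and 5 in Group B fitted alone. Gaussian fits put 3444 of 13685 genes and 2 of the 7 in rhythmic patterns (1647 and 0 otherwise). They put 1 of the 7 in no rhythm.

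The replicate numbers followed circadian time, and the correlation of same-time deviations was above 0.1 at 2 of 8 times, so they do not pair the litters. With circadian time as replicate block, 0 genes were called between groups, and the difference of Fos was 0.24. Of 16 libraries, 1 correlated best with the library of its own time in the other group.

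With each library left out in turn, genes called ranged from 2 to 104 for night against day, 0 to 5 in Group A, 0 to 2 in Group B, 1 to 92 for the common cosine, 0 to 3 and 1 to 24 in Groups A and B, and 0 to 2 for the difference of the cosines, and 0 to 2 of the 7 genes were assigned a rhythm. On the log2 scale, the group difference of Jun ranged from -0.0266 to 0.0078 and of Egr1 from -0.0355 to 0.23. Night against day ranged from -0.0979 to 0.0906 for Fos and -0.12 to 0.10 for Nr4a1. In Group A it ranged from -0.0749 to 0.30 for Fos, -0.0894 to 0.20 for Junb, -0.0415 to 0.0380 for Jun and -0.0445 to 0.16 for Nr4a1. In Group B it ranged from -0.32 to 0.0403 for Fos, -0.23 to 0.39 for Egr1, -0.31 to 0.12 for Nr4a1 and -0.18 to 0.0397 for Dusp1. The difference of night against day between groups ranged from -0.40 to 0.0408 for Nr4a1, -0.21 to 0.17 for Arc and -0.0272 to 0.19 for Dusp1.

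The r to Fos changed sign for Junb (-0.17) and Nr4a1 (-0.0355) within Group A, for Arc (-0.28) and Dusp1 (0.28) within Group B, for Dusp1 (0.0888) without the 2 libraries farthest from the median of Fos, and for Junb (-0.0389) without the deepest library.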
